A study of Homo sapiens with 4 samples.

Results

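ABCA2, ABCA3, ABCA5, ABCA6, ABCA7, ABCA9 and ABCA10 belong to the ABCA subfamily of ATP-binding cassette (ABC) transporters and were described here in SU-DHL-2 cells exposed to Spautin-1. They were taken by gene symbol from the deposited count table, which matched 7 of 7 names among its 61267 genes. The set leaves out ABCA1, ABCA4, ABCA8, ABCA12 and ABCA13, and was picked because the subfamily tended to be higher after Spautin-1. Counts of the same comparison therefore chose the genes, so their differences between groups are given as a description, with no test. SU-DHL-2 is an established human line of diffuse large B-cell lymphoma, labelled as lymph node tissue of wild-type genotype. Both groups were the same line in the same medium: 2 libraries received vehicle and 2 received Spautin-1, a small molecule known as an inhibitor of the deubiquitinases USP10 and USP13, at 10 µM for 36 h. The labels give no time for the vehicle libraries and do not tell whether replicates were cultured apart. All 4 libraries come from 1 cell line, so p-values for other genes speak for the spread among these libraries alone, and that spread may be technical.

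ABCA proteins are large single-chain pumps with a pair of membrane-spanning domains and a pair of cytoplasmic ATPase domains, and most known members move phospholipids, sterols or sphingolipids across membranes. ABCA1, the best studied, loads cholesterol and phospholipid onto apolipoprotein A-I and is induced by the liver X receptors. ABCA2 and ABCA5 lie in late endosomes and lysosomes, ABCA3 fills the lamellar bodies of lung cells with surfactant lipid, and ABCA7 takes part in phospholipid handling and phagocytosis. ABCA5, ABCA6, ABCA9 and ABCA10 stand side by side in a cluster on chromosome 17, together with ABCA8, and little is established about what ABCA6, ABCA9 and ABCA10 carry.

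Promoter windows were examined because 4 of the genes are neighbours that were all higher after Spautin-1. Windows of 300 bases, 250 before and 50 after a transcription start, were taken from RefSeq on GRCh38.p14. All 7 genes matched, with 9 windows, since ABCA2 and ABCA10 each have a pair of starts. Shown 5′ to 3′ on the gene's strand are the windows of ABCA5 (chr17:69327084-69327383, minus strand), which had the largest difference among the well-covered genes, of its neighbours ABCA6 (chr17:69141846-69142145, minus strand) and ABCA9 (chr17:69060878-69061177, minus strand), and of ABCA7 (chr19:1039857-1040156, plus strand), the most abundant. Capitals mark matches on either strand to AP-1 (TGANTCA), the E-box (CACGTG), the CCAAT box (CCAAT), the GC box (GGGCGG) and the TATA box (TATAAA).
ABCA5: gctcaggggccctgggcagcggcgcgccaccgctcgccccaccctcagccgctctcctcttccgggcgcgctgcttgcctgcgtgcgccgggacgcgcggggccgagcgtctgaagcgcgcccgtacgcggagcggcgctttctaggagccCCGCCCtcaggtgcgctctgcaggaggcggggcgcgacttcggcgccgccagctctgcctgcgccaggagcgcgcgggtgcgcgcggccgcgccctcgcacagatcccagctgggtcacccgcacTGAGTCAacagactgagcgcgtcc
ABCA6: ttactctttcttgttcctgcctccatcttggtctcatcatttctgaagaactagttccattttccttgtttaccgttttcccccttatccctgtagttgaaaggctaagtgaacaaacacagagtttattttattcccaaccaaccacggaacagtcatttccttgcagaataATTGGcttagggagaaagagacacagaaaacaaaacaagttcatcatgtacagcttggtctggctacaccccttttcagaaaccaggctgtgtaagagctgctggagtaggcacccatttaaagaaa
ABCA9: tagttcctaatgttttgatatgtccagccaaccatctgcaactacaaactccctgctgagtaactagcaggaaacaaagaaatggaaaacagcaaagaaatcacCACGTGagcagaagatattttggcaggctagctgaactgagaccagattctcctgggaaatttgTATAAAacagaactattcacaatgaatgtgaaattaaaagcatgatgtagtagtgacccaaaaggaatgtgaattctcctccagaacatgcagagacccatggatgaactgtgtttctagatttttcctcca
ABCA7: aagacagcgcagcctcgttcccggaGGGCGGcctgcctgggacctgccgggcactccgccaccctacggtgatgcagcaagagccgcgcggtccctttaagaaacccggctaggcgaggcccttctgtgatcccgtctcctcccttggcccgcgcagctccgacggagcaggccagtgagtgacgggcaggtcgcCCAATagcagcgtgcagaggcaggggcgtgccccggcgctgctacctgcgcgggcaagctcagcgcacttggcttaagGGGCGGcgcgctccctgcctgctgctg

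The neighbours on chromosome 17 had unlike windows. The ABCA5 window was 76.3% G and C with 45 CpG dinucleotides, whereas the ABCA6 window was 41.7% G and C with 2 CpGs and the ABCA9 window 39.7% with 1. The ABCA10 windows were at 25% and 32.3%, against a median of 58.7% over the 35116 windows of all genes. The windows of ABCA7 (70%), ABCA3 (78%) and ABCA2 (64.3% and 86.7%) were G and C rich. No motif searched was found in all 7 genes. The GC box was the most widely shared, in ABCA2, ABCA3, ABCA5 and ABCA7, and 45% of all windows hold it. An AP-1 match stood 27 bases into the transcribed part of ABCA5, counting from 1 at the start site, and another in 1 ABCA10 window, where 7.71% of all windows have a match. The E-box, the core of sites bound by USF and TFEB factors, was matched in ABCA9, and 7.26% of all windows have it. CCAAT matches were in ABCA6, ABCA7 and ABCA10 (34.6% of all windows) and TATA matches in ABCA9 and ABCA10 (11.5%). The cAMP response element (TGACGTCA, 1.85% of all windows) and the direct repeat DR4 read by the liver X receptors (0.0199%) were not matched in any of the 9 windows. The searches read both strands, motifs could overlap, and a match is a string of letters, not a site shown to be bound.

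The libraries held 34115420 and 38362526 counts in vehicle and 38325536 and 34893634 in Spautin-1. Of low counts between 2 and 11, between 82.1% and 84% per library were even numbers, where about equal numbers of odd and even counts would come from single reads, so intervals from these counts are too narrow. Levels are CPM (counts scaled to a common library size), normalised between libraries by the trimmed mean of M-values (TMM). Over 18368 genes tested, the median log2 fold change was -0.01. B cell markers were present (10 of 10 above a mean of 1 CPM), with sums of 781 to 875 CPM in vehicle and 1210 to 1230 in Spautin-1. T cell, myeloid, fibroblast and endothelial markers summed to at most 1.64 CPM in any library, with COL3A1, LUM and CDH5 at 0 in all 4. Markers of surfactant-making alveolar cells, in which ABCA3 is best known, summed to 2.1 to 2.54 CPM in vehicle and 2.67 to 2.68 in Spautin-1. Of the oligodendrocyte markers, myelin MOG was at 0 in all 4 libraries and only MBP reached 1 CPM. The part of the B cell marker difference in the results below was not tested. In bulk RNA, fewer cells with a transcript and less transcript per cell cannot be told apart.

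Added together, the 7 ABCA transcripts stood at 53.9 and 64.3 CPM in the vehicle libraries and at 110 and 114 CPM in the Spautin-1 libraries. The sums rest on 1873, 2486, 4119 and 3947 counts, in that order. ABCA7 supplied 54.2% and 67% of these counts in vehicle and 51.2% and 51.5% in Spautin-1, so the sum is led by 1 gene. The share of ABCA5 was 18.3% and 13.8% in vehicle and 28.4% and 28.6% in Spautin-1. Each of the 7 had a positive log2 fold change, from 0.43 to 2.07 with a median of 0.92, and 49.2% of all genes tested had one. In 6 of the 7 both Spautin-1 libraries lay above both vehicle libraries, a separation seen in 30.8% of all genes tested, while 30.6% were separated downward. ABCA2 was the exception. With edgeR's quasi-likelihood test, 5 of the 7 would count as higher (Benjamini-Hochberg adjusted p under 0.05), and 11.5% of all genes tested were higher, or 22% in either direction. These counts follow from how the genes were picked and are read as nothing more. With all 4 libraries, 4 of the 7 would count as higher by DESeq2, 4 by limma-voom and 5 by edgeR with a GC offset. Calls among the 7 changed with the library left out, as did calls among all genes tested. The median log2 fold change of the 7 was 0.91 without Spautin-1 replicate 1 and 1.09 without Spautin-1 replicate 2. It was 1.35 and 0.97 without vehicle replicates 1 and 2. All 7 passed the filter on low counts, ABCA10 only through its Spautin-1 libraries. The picking rule stated no threshold, but ABCA1, ABCA4, ABCA8, ABCA12 and ABCA13, which are outside the set, all failed this filter. Pseudogenes aside, a log2 fold change from the filtered fit could therefore be given only for the ABCA genes inside the set, with ABCA10 at its edge.

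**Figure D1:**
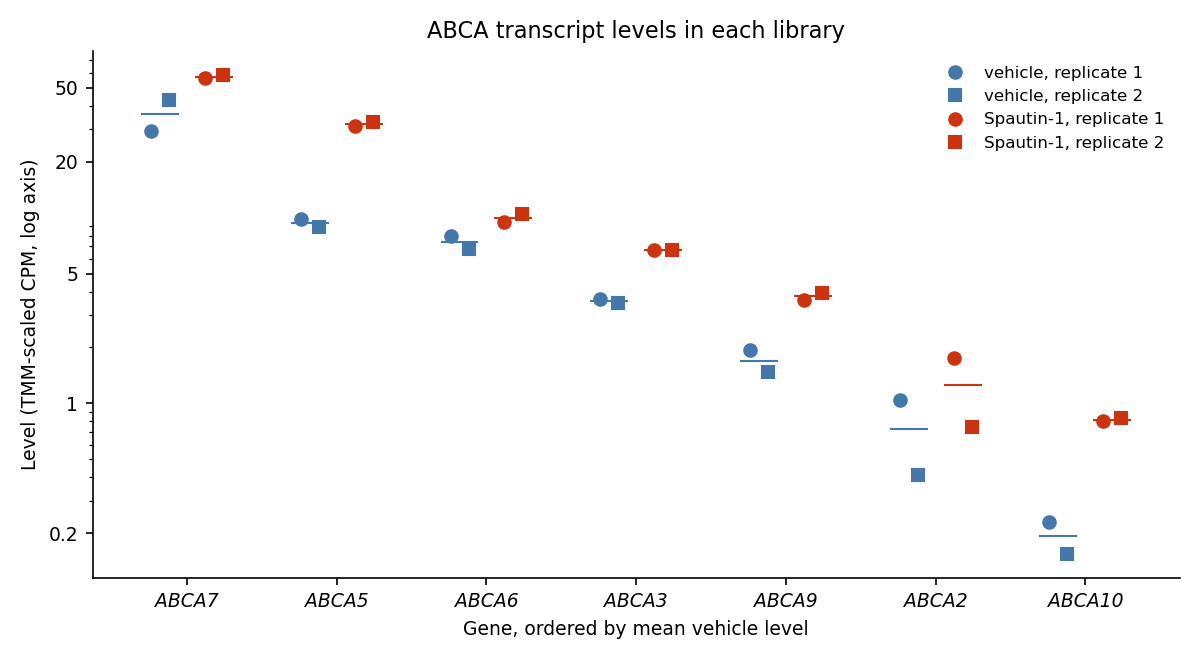
Levels of the 7 ABCA transcripts in each of the 4 libraries, in TMM-scaled CPM on a log axis, with genes ordered by mean vehicle level. Points are libraries (circles replicate 1, squares replicate 2; blue vehicle, red Spautin-1) and short lines are group means; the groups are apart in 6 genes and overlap in ABCA2.

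ABCA5 (chromosome 17, 69244311 to 69327244, GRCh38, minus strand), a transporter of late endosomes and lysosomes, had the largest difference among the genes with more than 100 counts in a library. Its counts were 342 and 344 in vehicle and 1171 and 1128 in Spautin-1. As levels these are 9.85 and 8.9 CPM against 31.2 and 32.6 CPM. The groups were far apart and the replicates of each close together. The mean moved from 9.37 ± 0.667 to 31.9 ± 0.951 CPM (SD, n = 2 each), 3.4-fold, a log2 fold change of 1.77 ± 0.15 (SE). Left-out libraries moved this between 1.69 and 1.84.

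The other 3 cluster genes differed less evenly. ABCA9 (chromosome 17, 68974488 to 69060949), whose substrate is not settled, had 67 and 57 counts in vehicle and 135 and 137 in Spautin-1. That is 1.93 and 1.48 CPM against 3.6 and 3.95 CPM, with no overlap, and a log2 fold change of 1.15 ± 0.29 (SE). ABCA6 (chromosome 17, 69078702 to 69141895), its neighbour, had 278 and 262 counts in vehicle and 356 and 362 in Spautin-1. Its levels were 8 and 6.78 CPM against 9.49 and 10.4 CPM. They did not overlap, and this was the smallest difference of the set, 1.35-fold or 0.43 ± 0.19 on the log2 scale. ABCA9 reads made up 19.4% and 17.9% of the counts of ABCA6 and ABCA9 together in vehicle (exact binomial 95% intervals 15.4 to 24 and 13.8 to 22.5) and 27.5% in both Spautin-1 libraries (23.6 to 31.7 and 23.6 to 31.6). These shares are a description of genes picked on this comparison. The intervals treat reads as independent and leave out the spread between libraries. Since most low counts are even, they are also narrower than the counting error.

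ABCA10 (chromosome 17, 69147214 to 69244846) was the scarcest, with 8 and 6 counts in vehicle and 30 and 29 in Spautin-1. Its levels were 0.23 and 0.155 CPM against 0.8 and 0.837 CPM. The groups did not overlap, and the log2 fold change of 2.07 ± 0.67 had the widest error of the 7. With a prior count of 2 in the fit it was 1.82. ABCA10 and ABCA5 share 318 exonic bases on the same strand, 3.78% of the exonic length of ABCA10, where the end of ABCA5 meets the start of ABCA10. ABCA10 held 2.29% and 1.71% of the counts of ABCA5 and ABCA10 together in vehicle and 2.5% and 2.51% in Spautin-1. The exact binomial 95% intervals, in the same order, were 0.992 to 4.45, 0.632 to 3.69, 1.69 to 3.55 and 1.68 to 3.58, given as a description and too narrow for the same reasons. What part of the ABCA10 counts comes from ABCA5 transcripts was not tested.

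ABCA7 (chromosome 19, 1039997 to 1065572, plus strand), a phospholipid transporter of phagocytic and other cells and a risk gene for Alzheimer's disease, was the most abundant. It had 1016 and 1666 counts in vehicle and 2109 and 2032 in Spautin-1. Its levels were 29.3 and 43.1 CPM in vehicle against 56.2 and 58.7 CPM in Spautin-1. The groups did not overlap, but the vehicle libraries stood 1.47-fold apart while the Spautin-1 libraries differed 1.04-fold. The log2 fold change was 0.67 ± 0.16, and it ranged from 0.41 without vehicle replicate 1 to 0.97 without vehicle replicate 2. ABCA3 (chromosome 16, 2275881 to 2340746, minus strand), the surfactant lipid pump, had 126 and 135 counts in vehicle and 252 and 233 in Spautin-1. Its levels were 3.63 and 3.49 against 6.72 and 6.73 CPM. These were the tightest replicates of the set, and the log2 fold change was 0.92 ± 0.21, between 0.89 and 0.94 with any library left out.

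ABCA2 (chromosome 9, 137007234 to 137028915, minus strand), a lysosomal transporter tied to sphingolipid and sterol handling, had 36 and 16 counts in vehicle and 66 and 26 in Spautin-1. Its levels were 1.04 and 0.414 CPM against 1.76 and 0.75 CPM. In both groups replicate 1 was the higher, and Spautin-1 replicate 2 lay below vehicle replicate 1, so the groups overlapped. The log2 fold change of 0.80 ± 0.57 became 0.05 and 1.30 when Spautin-1 replicates 1 and 2 were left out, and 1.59 and 0.28 when vehicle replicates 1 and 2 were. The libraries of each group stood far apart, replicate 2 being at 0.4 times replicate 1 in vehicle and 0.427 times in Spautin-1.

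**Figure D2:**
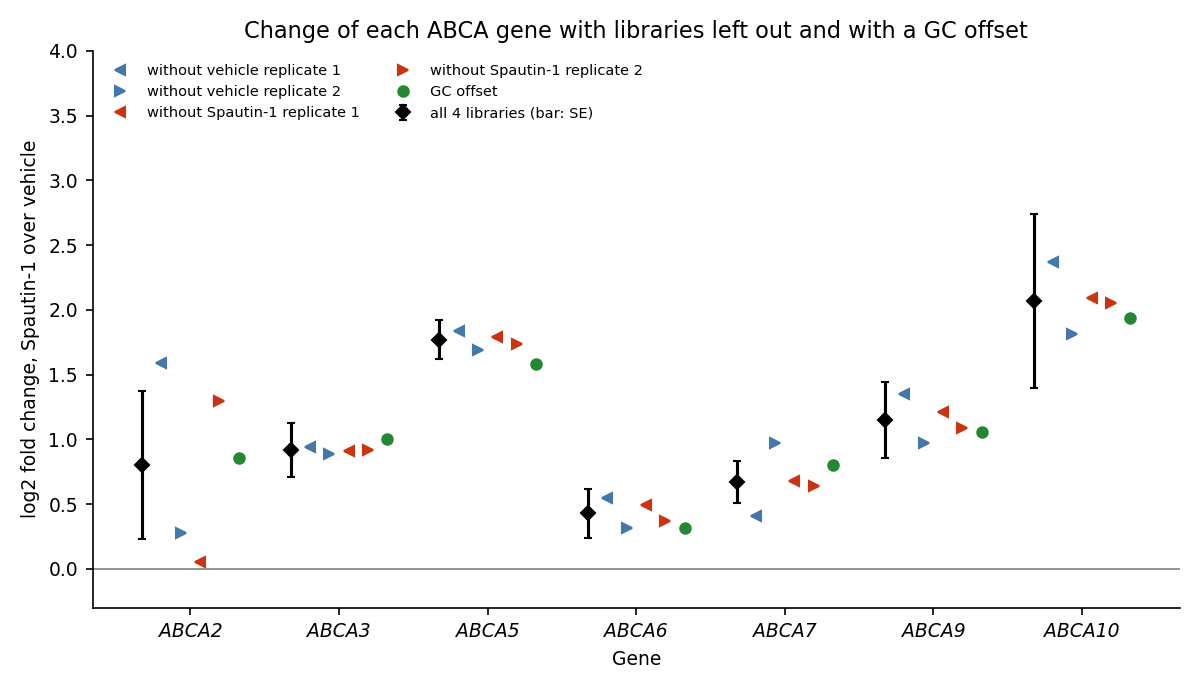
Log2 fold change of each ABCA gene, Spautin-1 over vehicle, with all 4 libraries (black, bar is the SE), with each library left out (triangles) and with an offset for GC content (green). ABCA5 and ABCA3 stay within narrow bands, ABCA7 runs from 0.41 to 0.97 as vehicle replicate 1 or 2 is left out, and ABCA2 runs from 0.05 to 1.59.

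The transcripts differ in base composition, and levels moved with it between the vehicle libraries and between the groups. ABCA2, ABCA3 and ABCA7 transcripts are 63.7%, 60.4% and 64.7% G and C, and those of ABCA5, ABCA6, ABCA9 and ABCA10 33.1%, 38.6%, 40.6% and 36.9%. Genes of at least 4 CPM were ranked by GC content in 5 groups of 1995. In the group with the highest GC content (56.8% to 81.1%), vehicle replicate 2 stood at a median of 1.19 times vehicle replicate 1. In the group with the lowest GC content (23.1% to 40.5%) that ratio was 0.911. Spautin-1 replicate 2 over replicate 1 had a median log2 ratio of 0.02 in the highest and -0.01 in the lowest group. The median log2 fold change of Spautin-1 over vehicle was -0.15 in the highest and 0.09 in the lowest group. What part of the ABCA differences comes from base composition was not tested, beyond the offset given next. An offset for GC content gave 1.0 for ABCA3, 0.80 for ABCA7 and 0.86 for ABCA2, and 1.58, 0.32, 1.06 and 1.94 for ABCA5, ABCA6, ABCA9 and ABCA10. With that offset and a vehicle library left out, ABCA7 was at 0.72 without replicate 1 and 0.89 without replicate 2, a narrower span than without the offset.

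Per kilobase of exonic length, which allows levels of different genes to be compared, ABCA7 led in vehicle at 3.77 ± 1.02 CPM per kilobase (SD, n = 2). It was followed by ABCA5 at 0.712 ± 0.0507, ABCA6 at 0.522 ± 0.0611 and ABCA3 at 0.456 ± 0.0121. ABCA9 was at 0.189 ± 0.0356, ABCA2 at 0.0631 ± 0.0383 and ABCA10 at 0.0229 ± 0.00631. ABCA6 and ABCA3 lie within about 1 SD of each other, and so do ABCA2 and ABCA10, so their order is not settled. In Spautin-1, ABCA7 was at 5.99 ± 0.18 and ABCA5 at 2.42 ± 0.0723 CPM per kilobase. ABCA3 (0.861 ± 0.000742) then stood above ABCA6 (0.704 ± 0.0479), an order that turns round with the length of the longest GENCODE 29 transcript (1.02 and 1.22). ABCA2 (0.109 ± 0.062) and ABCA10 (0.0974 ± 0.00315) did not differ beyond their spread.

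The other ABCA genes were close to absent. ABCA1 had 3 and 9 counts in vehicle and 0 and 6 in Spautin-1. ABCA4, the retinal transporter, had 10 and 0 against 2 and 0, ABCA12, which loads lipid into the lamellar granules of skin, 4 and 3 against 4 and 8, and ABCA13 0 and 4 against 0 and 2. ABCA8, the remaining gene of the chromosome 17 cluster, had 0 counts in all 4 libraries, where 3 counts would be 0.0776 to 0.0866 CPM. None of these passed the filter on low counts. Of the pseudogenes, ABCA17P had at most 10 counts, and ABCA11P was at 4.83 ± 0.0551 CPM in vehicle and 5.22 ± 0.529 in Spautin-1, a log2 fold change of 0.11 ± 0.22 (edgeR adjusted p = 0.755).

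Genes of the other ABC subfamilies, which the choice did not use, showed no common direction. Of 25 tested genes (36 of subfamilies B to G and 7 further ABCA genes were listed), 3 rose and 5 fell, that is 12% and 20%, and their median log2 fold change was 0.04. Of all genes tested, 11.5% rose and 10.5% fell. ABCB4, which flops phosphatidylcholine into bile, rose from 9.9 and 9.06 CPM to 19.9 and 24.9 CPM (2.36-fold, edgeR adjusted p = 0.000375). ABCD4, a lysosomal cobalamin transporter, rose 1.36-fold (adjusted p = 0.0319). ABCG1, the cholesterol exporter that acts with ABCA1, fell from 1.01 and 1.11 CPM to 0.24 and 0.231 CPM, resting on 35, 43, 9 and 8 counts (log2 fold change -2.16 ± 0.59, adjusted p = 0.0216). ABCC4, an exporter of cyclic nucleotides and drugs, fell 1.35-fold (adjusted p = 0.0271). ABCE1 and ABCF1, which act in ribosome recycling and translation and carry no cargo, fell 1.43-fold and 1.29-fold (adjusted p = 0.00604 and 0.0102), and 3 of the 4 ABCE and ABCF genes fell. Without Spautin-1 replicate 2, 1 gene was higher and 0 were lower (3 and 4 at an unadjusted p under 0.05), and in the fit lacking Spautin-1 replicate 1 these counts were 1 and 2. They were 5 and 6 without vehicle replicate 1. ABCB4 kept its call in each of these fits.

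**Figure D3:**
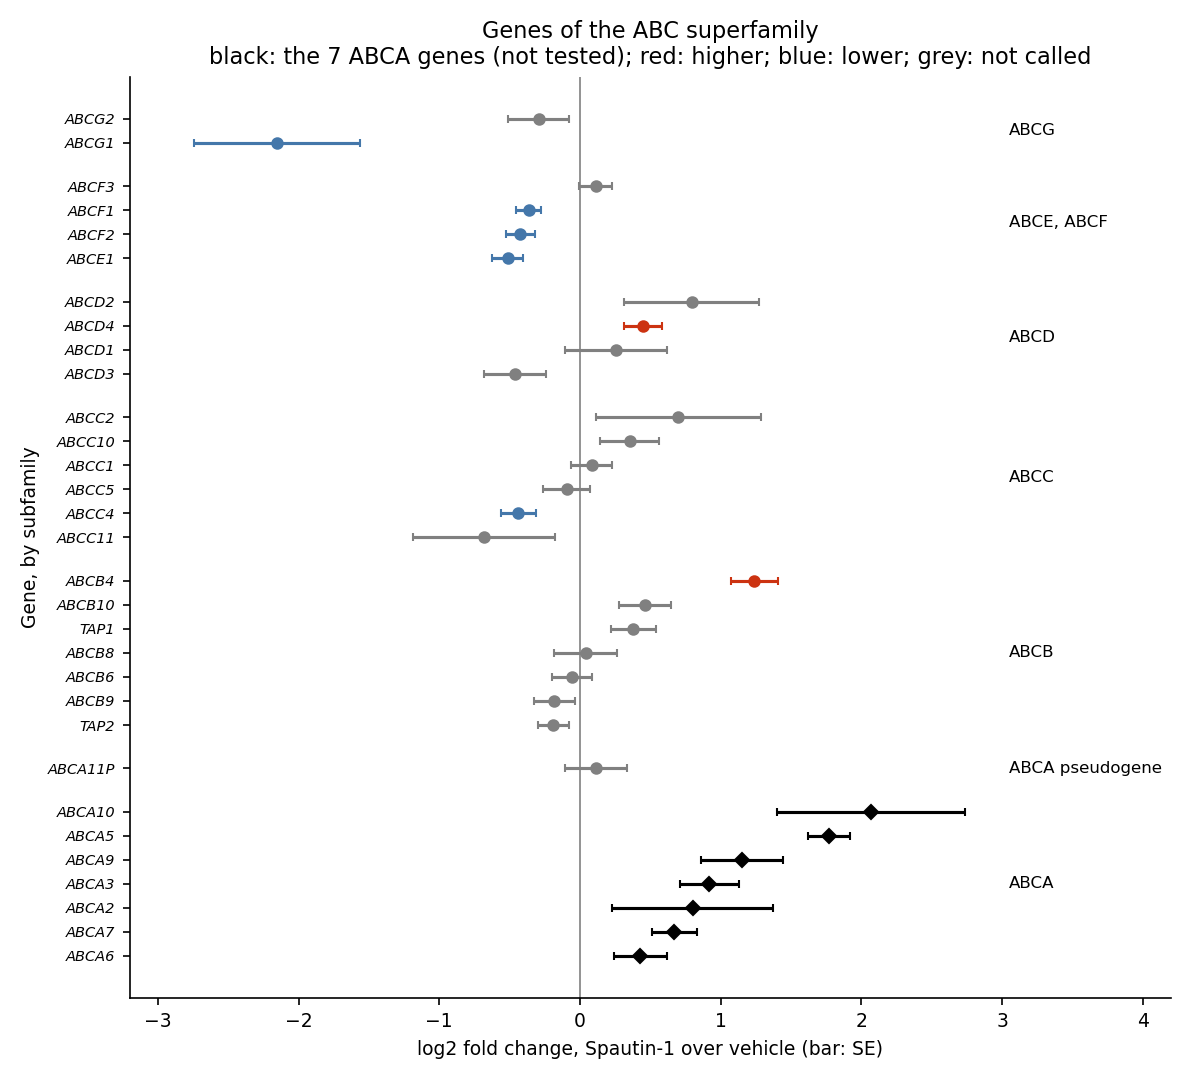
Log2 fold change (Spautin-1 over vehicle, bar is the SE) of the ABC superfamily genes that passed the filter, grouped by subfamily. Black diamonds are the 7 ABCA genes chosen for this comparison, red and blue are other genes called higher and lower, and grey genes were not called; 24 of the 25 other genes tested are drawn.

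Genes beside the ABCA genes on the chromosome were tested to see what surrounds them, within 200 kb of each. For comparison, 11.5% of all genes tested rose and 10.5% fell. Whether the neighbours differ from all genes was not tested. ABCA7 lies 351 bases from ARHGAP45, a gene for a GTPase-activating protein, which fell from 3713 and 5619 counts to 2454 and 2130 (log2 fold change -0.99 ± 0.14, edgeR adjusted p = 0.000533). On its other side CNN2, an actin-binding calponin 929 bases away, was at -0.04 ± 0.12 (adjusted p = 0.856). Of 19 tested neighbours of ABCA7, 1 rose, the transcription factor gene ARID3A (0.86 ± 0.20, edgeR adjusted p = 0.00909), and 5 fell. Their median log2 fold change was -0.21, but -0.60 without vehicle replicate 1, 0.14 without vehicle replicate 2, -0.08 without Spautin-1 replicate 1 and -0.04 with the GC offset, so its direction rests on vehicle replicate 2. Near ABCA3, MIR3677HG, 2463 bases away, fell by 1.52 on the log2 scale (adjusted p = 0.0442), a call lost without vehicle replicate 2 (adjusted p = 0.135) or Spautin-1 replicate 2 (adjusted p = 0.248), with the edgeR test, and also with the length offset (0.0503) and with DESeq2 (0.0563). The splicing factor gene RNPS1, 7484 bases away, was at -0.11 ± 0.11 (adjusted p = 0.517). Of 26 tested neighbours of ABCA3, 4 fell. Their median log2 fold change was -0.35, and lay between -0.63 and -0.16 with a library left out. Of 30 near ABCA2, 2 rose, among them MAN1B1, a mannosidase gene (0.48 ± 0.14, edgeR adjusted p = 0.0321, lost without either Spautin-1 library), and 8 fell, among them SAPCD2 (-1.06 ± 0.17, adjusted p = 0.00112). The neighbours of ABCA2 had a median log2 fold change of -0.36, between -0.65 and -0.17 with a library left out. With the GC offset 4 of them were higher and 7 lower.

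Around the chromosome 17 cluster only MAP2K6 and the antisense RNA gene ABCA9-AS1 were tested. MAP2K6, a kinase that activates p38, begins 87453 bases beyond ABCA5 and had 55 and 26 counts in vehicle and 70 and 119 in Spautin-1. Its log2 fold change was 1.24 ± 0.45 (edgeR adjusted p = 0.0656). It passed by edgeR without a filter on low counts (adjusted p = 0.00623) and with a replicate block (0.00708). By edgeR with the GC offset (0.0688) or the length offset (0.0576) it did not pass. The same held for DESeq2 (0.0731) and limma-voom (0.0643). The log2 fold change of MAP2K6 was 1.97 without vehicle replicate 1 and 0.74 without Spautin-1 replicate 2. ABCA9-AS1 shares 534 exonic bases with ABCA9 on the opposite strand and had 10 and 1 counts in vehicle and 2 and 10 in Spautin-1, against 57 to 137 for ABCA9. Its log2 fold change was 0.13 ± 1.12 (edgeR adjusted p = 0.951).

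**Figure D4:**
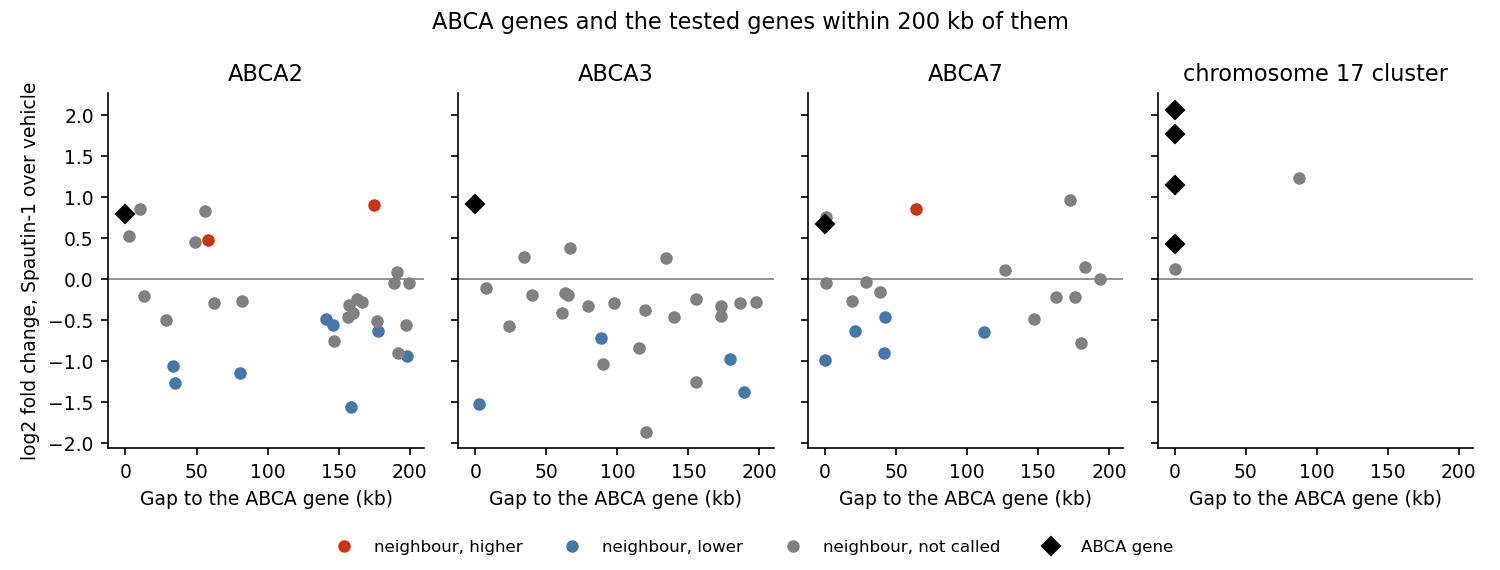
Log2 fold change of the tested genes within 200 kb of ABCA2, ABCA3, ABCA7 and the chromosome 17 cluster, by their gap to the nearest ABCA gene in kilobases. Black diamonds at 0 are the ABCA genes, red and blue are neighbours called higher and lower and grey were not called; most neighbours of ABCA2, ABCA3 and ABCA7 lie below 0 with all 4 libraries, but the median near ABCA7 is 0.14 without vehicle replicate 2.

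Genes that work with or regulate lipid transporters moved in both directions, as did all genes tested, of which 11.5% rose and 10.5% fell. Shares of all genes called also moved in fits with a library left out. Counts from those fits are therefore not compared with these shares. Of 10 tested liver X receptor targets, 3 rose (30%) and 2 fell (20%), with a median of 0.09 (0.54 without vehicle replicate 1). MYLIP, the ubiquitin ligase that removes the LDL receptor, rose from 1.15 and 1.09 CPM to 2.83 and 3.87 CPM (2.98-fold, edgeR adjusted p = 0.00508), and SREBF1, the factor of lipogenesis, fell 1.66-fold (adjusted p = 0.00927) beside ABCG1. Without vehicle replicate 2 and without Spautin-1 replicate 1, 2 of these targets were higher, and 3 were lower without vehicle replicate 1, 1 without Spautin-1 replicate 1 and 0 without Spautin-1 replicate 2 (2 at an unadjusted p under 0.05 in that edgeR fit). Of 14 tested transcription factors of lipid and lysosome genes, SREBF1 and USF1, which binds E-boxes, fell (USF1 1.63-fold, edgeR adjusted p = 0.00597). That is 14.3% lower and 0% higher. Lower factors numbered 4 without vehicle replicate 1 and 0 without Spautin-1 replicate 2 (2 at an unadjusted p under 0.05 in that edgeR fit), and 2 factors were higher without vehicle replicate 2 or with the GC offset. The receptor genes NR1H2 and NR1H3 were at -0.33 and -0.31 (adjusted p = 0.127 and 0.313), and TFEB, the main factor of lysosome genes, at -0.33 (adjusted p = 0.132). These last 3 were named after their values were seen.

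Of 25 tested sphingolipid enzymes, 4 rose (16%) and 6 fell (24%), with a median of -0.10. The shares over all genes tested were 11.5% and 10.5%. ASAH1, the acid ceramidase of the lysosome, rose from 11.4 and 11.9 CPM to 26.7 and 28.2 CPM (2.35-fold, edgeR adjusted p = 0.000141). SPHK2, a sphingosine kinase, fell 1.97-fold (adjusted p = 0.0134), and SPTSSA, a subunit of the enzyme that starts sphingolipid synthesis, 1.46-fold (adjusted p = 0.0294). Among 17 genes of late endosomal and lysosomal lipid handling, 3 rose (17.6%) and 2 fell (11.8%), with a median of 0.02. SCARB2, a lysosomal membrane protein that transports cholesterol, rose 1.77-fold (adjusted p = 0.00229), and NPC1, the cholesterol exporter of the late endosome, 1.58-fold (adjusted p = 0.0257), while CLN3 fell 1.46-fold (adjusted p = 0.00974). Of 16 flippases and scramblases, which move phospholipids between membrane leaflets, ATP11A (1.92-fold, edgeR adjusted p = 0.0031) and ATP9B (1.58-fold, adjusted p = 0.0235) fell. That is 12.5% lower, near the share of all genes, and 0% higher. Leaving out Spautin-1 replicate 1 or 2 reduced the lower sphingolipid enzymes to 1, and leaving out vehicle replicate 2 to 3, while 2 were higher without Spautin-1 replicate 2 and 2 with DESeq2, where 4 were lower. For late endosomal genes 1 was higher in either fit lacking a Spautin-1 library and 5 with the GC offset, lower genes numbered 1 without vehicle replicate 2 or Spautin-1 replicate 1, and 3 without vehicle replicate 1. Without Spautin-1 replicate 2, 0 late endosomal genes were lower by edgeR (2 at an unadjusted p under 0.05), against 2 by DESeq2 and 2 by limma-voom with all 4 libraries. Lower flippases numbered 1 in either fit lacking a Spautin-1 library and 3 without vehicle replicate 1, and 2 were higher in either fit lacking a vehicle library. ASAH1, SCARB2 and ATP11A kept their calls in each fit with a library left out.

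Over the 4 libraries, the genes with the nearest centred log2 CPM profile were found for each ABCA gene with a mean of at least 1 CPM. This left out ABCA2 and ABCA10. Candidates were the 9088 genes outside the set that had a gene symbol and a mean of at least 5 CPM. The measure is the Euclidean distance in log2 units, given without a test, since 4 libraries in 2 groups leave many genes alike. FDPS (distance 0.0313) and SYTL3 (0.0351) were nearest to ABCA3, and SLAMF1 (0.0596) and ACAT2 (0.0747) to ABCA5. TTL (0.027) and ZC3H7A (0.0271) were nearest to ABCA6, MT2A (0.0547) and S100A6 (0.0644) to ABCA7, and TP73-AS1 (0.0682) and DRAM1 (0.0734) to ABCA9. FDPS stood at 106 and 99 CPM in vehicle and 194 and 191 in Spautin-1, and SLAMF1 at 4.26 and 3.75 CPM against 13.1 and 13.4 CPM. MT2A shared the split of the vehicle libraries seen in ABCA7, with 57 and 79.7 CPM against 108 and 112 CPM.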

How the data were processed

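Stranded mRNA libraries were prepared from total RNA, per the labels' protocols. The submitters' processing notes name Trimmomatic 0.36, featureCounts, Subread 1.5.1, edgeR 3.12.1 and GRCh38. For the aligner, annotation release and strand setting, nothing is stated in the sources at hand. The authors deposited raw counts per gene with exon coordinates and exonic lengths, per the file headers.

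Analysis used edgeR 4.0.16 (R 4.3.3): filterByExpr by group (minimum count 10, minimum total 15), TMM, and the quasi-likelihood F test, two-sided, Benjamini-Hochberg adjusted over 18368 genes at 0.05. Standard errors are the log2 fold change over the square root of F. Values are for n = 2 per group. With 2 libraries per group, the smallest p an exact permutation test allows is 0.333. GC content came from the longest GENCODE 29 transcript, matched for 89.8% of genes tested. Of 187 list entries, 1 was not matched. Procedures were tested on simulated data. Replicates differed by more than sampling noise (chi-square per degree of freedom 27.6 for vehicle, 8.33 for Spautin-1).

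The genes, lists and tests were chosen with earlier results of these data known. Named genes are the 7 ABCA genes, the other ABCA genes, the neighbours within 200 kb, the nearest profiles, and per list the 2 called genes of lowest p in the direction with more calls and 1 in the other. Some of these genes are not reported here. Alternatives were other scalings and filters, DESeq2 1.42.0, limma-voom 3.58.1, a replicate block, loess offsets (span 0.3) for GC content and length, and leaving out each library. Halved counts, and the GC offset without a vehicle library, were added after seeing the data.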

Additional observations from a re-analysis of the deposited data

How the results depend on the processing

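Each of the 7 ABCA genes kept a positive log2 fold change under every alternative in which it was tested. This direction was favoured by how they were picked and is read as nothing more. ABCA10 did not pass the filter of 1 CPM in 2 libraries. When each library was left out in turn, genes called higher ranged from 1067 to 2981 and genes called lower from 780 to 2785, both lowest without Spautin-1 replicate 2 and highest without vehicle replicate 1. In these fits the lone library of a group is assumed to vary like the other group. Other ABC genes called higher ranged from 1 to 5 and lower from 0 to 6, and the median of the 7 ABCA genes from 0.91 to 1.35. With the GC offset and without vehicle library 1, 6 other ABC genes were higher and that median was 1.19. With the replicate block, 2615 genes were higher and 2485 lower, 3 other ABC genes were higher and 5 lower, and the ABCA median stayed 0.92. The labels do not state that replicate numbers mark a shared culture, so the numbers are not treated as pairs. Between the groups, the difference of replicate 1 and replicate 2 had a correlation of -0.00151 across genes. A single value over all genes cannot exclude pairing for some of them. With the edgeR test, ABCC4, ABCD4, SPTSSA, ATP9B, NPC1, CLN3 and ABCG1 lost their calls without either Spautin-1 library (adjusted p between 0.0518 and 0.229), ABCG1 also without vehicle replicate 2 (0.0929), ABCE1, ABCF1, SREBF1 and USF1 without Spautin-1 replicate 2 (0.081 to 0.197) and SPHK2 without Spautin-1 replicate 1 (0.0876). The cause was not tested. ABCA2 and ABCA10 rest on at most 66 and 30 counts per library. Halved counts gave the same directions, with an ABCA median of 0.91. Halving every library leaves ratios between groups almost unchanged, so this is no check of the directions or the median.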
